A study of Mus musculus with 6 samples.

Results

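Keratins are the intermediate filament proteins of epithelial cells, and vimentin is the intermediate filament protein of fibroblasts and other mesenchymal cells. The genes described here are 8 keratin genes (Krt8, Krt18, Krt7, Krt19, Krt20, Krt5, Krt14 and Krt17) together with Vim, 9 of the 53762 gene symbols counted. They were chosen by symbol, with the difference in Krt8 and Krt18 between PME-1 knockout (KO) and wild-type (WT) cells already known from these libraries, so their levels and fold changes are given as a description and no p-value is attached to them. RNA sequencing was carried out on immortalized mouse embryonic fibroblasts (MEFs), cells grown from embryo tissue, collected 24 hours after seeding in high-glucose medium. There were 3 libraries from KO cells (labelled PME-1 KO) and 3 from WT cells (labelled PME-1 WT). Ppme1 is the gene of PME-1, an enzyme that takes methyl groups off the phosphatase PP2A. The labels do not give the knockout method, the immortalizing agent or the number of clones, and nothing says that the 3 libraries of a group came from separate cultures, so a p-value here reflects the spread among these libraries alone, which may be technical.

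Keratin filaments are built from pairs of an acidic type I and a basic type II chain, and a chain without a partner is unstable. KRT8 (type II) and KRT18 (type I) form the filaments of simple epithelia such as liver and gut, with KRT7 (type II), KRT19 and KRT20 (both type I) added in particular ducts and linings. KRT5 (type II) and KRT14 (type I) form the filaments of the basal layer of stratified epithelia, and KRT17 (type I) appears in skin appendages and wounded skin. Vimentin forms filaments of its own without keratin partners and is used as a mesenchymal marker.

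Total counts ranged from 34450993 to 43000426 in the KO libraries and from 38155189 to 44116310 in the WT libraries, so 3 counts, used here as the detection floor, equal 0.0689 to 0.0881 CPM (counts scaled to the size of the library). Ppme1 was at 17.4 ± 2.14 CPM in KO and 81.9 ± 4.22 CPM in WT (SD, n = 3 each). The Y chromosome genes Uty, Kdm5d, Eif2s3y and Ddx3y were counted in every KO library and had 0 counts in every WT library, whereas Xist was at 0.229 ± 0.0998 CPM in KO and 431 ± 60.2 CPM in WT. The groups thus differed in sex markers as well as in genotype, and the effects of genotype, sex and cell line cannot be told apart in any value below. Libraries KO 1 and WT 1 stood apart from the rest of their groups. Over all tested genes the median absolute log2 difference was 0.133 between KO 2 and KO 3 and 0.134 between WT 2 and WT 3. Between KO 1 and the other KO libraries it was 0.383 and 0.397, while KO 1 differed from WT 2 by 0.338. WT 1 differed from the other WT libraries by 0.348 and 0.364, while KO 2 and KO 3 differed from WT 1 by only 0.278 and 0.289. Ppme1 matched the genotype labels in all 6 libraries, and the sex markers went the same way in all libraries of a group. Members and counts of called genes are therefore given with and without KO 1 and WT 1. Without that pair, edgeR rested on 2 libraries per group with little spread and called 48% of genes.

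Krt18 and Krt19 were the most abundant keratin transcripts in KO cells, and Krt18 was a minor one in WT cells. Per length of merged exons Krt18 led in every KO library, but with the longest transcript as the length KO 3 had 40.0 CPM per kb of Krt18 and 41.8 CPM per kb of Krt19. It had 4176, 2593 and 1958 counts in KO libraries 1 to 3, against 64, 45 and 59 counts in WT libraries 1 to 3. Scaled to library size these were 108, 60.8 and 57.5 CPM in KO and 1.78, 1.04 and 1.35 CPM in WT. The lowest KO library was far above the highest WT library, and KO 1 was the highest of all. The mean was 75.5 ± 28.3 CPM in KO and 1.39 ± 0.369 CPM in WT (SD, n = 3 each), a 54.3-fold higher mean in KO with a fitted log2 fold change of 5.77 (SE 0.36). Without KO 1 and WT 1 the ratio of means was 49.4, and leaving out single libraries gave log2 fold changes between 5.41 and 5.99.

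Krt8, whose protein is the usual partner of KRT18, was also higher in KO cells but at a far lower level. Its counts were 221, 124 and 58 in KO libraries 1 to 3 and 9, 8 and 11 in WT libraries 1 to 3. These are 5.72, 2.91 and 1.70 CPM in KO and 0.25, 0.185 and 0.253 CPM in WT. The groups did not overlap, and KO libraries kept the order they had for Krt18. The mean was 3.44 ± 2.06 CPM in KO and 0.229 ± 0.0383 CPM in WT, 15.0-fold higher in KO (log2 fold change 3.90, SE 0.56), and 10.5-fold higher without KO 1 and WT 1. Krt8 passed the threshold of the fit over all genes with all 6 libraries but not without WT 2 (log2 fold change 3.76) or without WT 3 (3.97). A processed pseudogene, Krt8-ps, matches Krt8 at 98.6% identity over 941 bases and had 9 counts over the KO libraries and 3 over the WT libraries. The 3 processed pseudogenes similar to Krt18 (Gm5200, Gm17847 and Gm7943, 83.5% to 90.5% identical) had 0 counts in all 6 libraries.

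**Figure D1:**
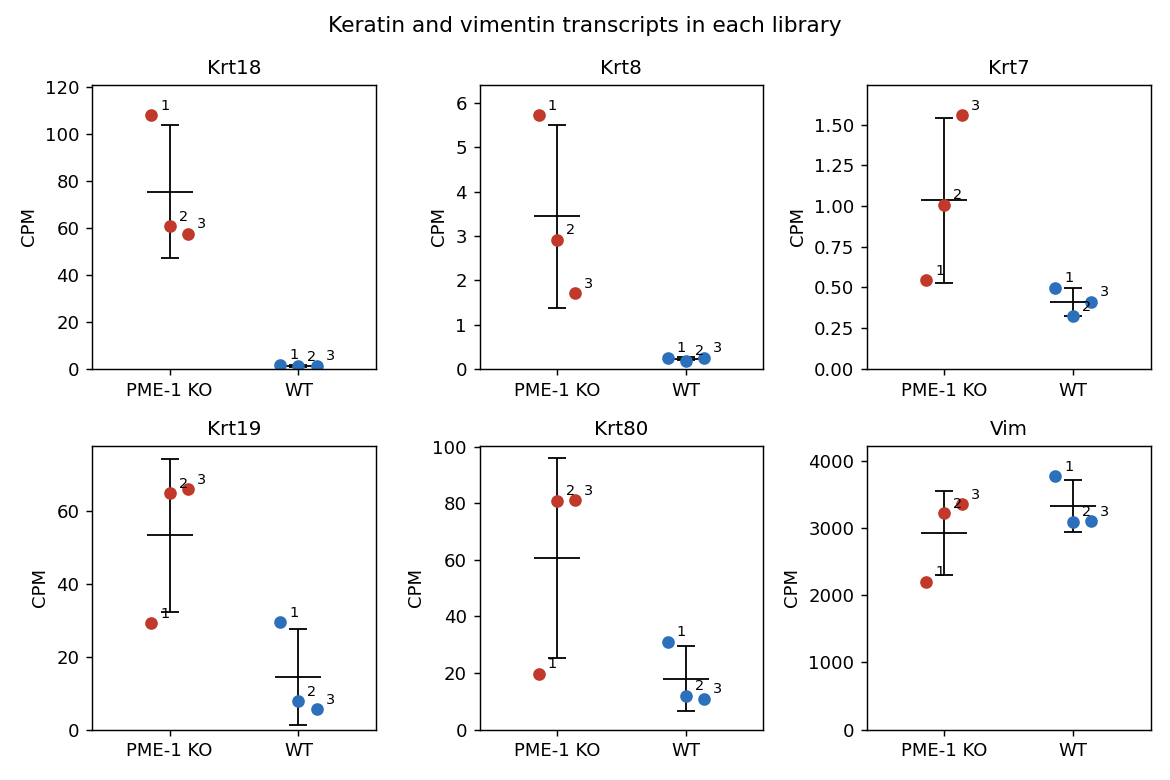
CPM of 5 keratin genes and Vim in each library, KO on the left (red) and WT on the right (blue). Numbers mark the library, horizontal lines the group mean and bars the SD (n = 3), and each panel has its own linear axis from 0. Krt18, Krt8 and Krt7 do not overlap between the groups, whereas KO 1 lies below WT 1 for Krt19, Krt80 and Vim and the groups overlap.

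Of the 9 genes, 5 passed the filter on low counts and were tested, and 2 of these, Krt18 and Krt8, were called higher in KO, with 0 called lower. Over all 15223 tested genes 3.55% were called higher and 3.86% lower, 7.4% in all. Since the choice of genes used this contrast, nothing is read from the count. DESeq2 called 3 of the 5 higher (Krt19 as well) and 0 lower, beside 7.85% of all tested genes higher and 7.96% lower. Without KO 1 and WT 1, edgeR called 4 of 5 higher and 0 lower, beside 23.3% of all genes tested there higher and 24.6% lower.

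Krt8 and Krt18 lie head to head on chromosome 15 (GENCODE M21, GRCm38). Krt8 (ENSMUSG00000049382.10) spans chr15:101996698-102004482 on the minus strand and Krt18 (ENSMUSG00000023043.7) chr15:102028180-102032027 on the plus strand, with their starts 23.7 kb apart. This arrangement is unusual in that Krt18 is a type I gene beside the type II cluster, while Krt19, Krt14, Krt17 and Krt20 lie with the other type I genes on chromosome 11. Because both differ in the same direction, the 250 bases before each RefSeq start (GRCm38.p6) are shown, 5′ to 3′ on the gene's own strand, at chr15:102027966-102028215 (plus strand) for Krt18 and chr15:102004343-102004592 (minus strand) for Krt8. The RefSeq starts differ from the GENCODE starts. Each window therefore runs past the GENCODE start of its gene, and part of it lies inside the gene as GENCODE places it. Capitals mark E boxes, the letters CANNTG.
Krt18: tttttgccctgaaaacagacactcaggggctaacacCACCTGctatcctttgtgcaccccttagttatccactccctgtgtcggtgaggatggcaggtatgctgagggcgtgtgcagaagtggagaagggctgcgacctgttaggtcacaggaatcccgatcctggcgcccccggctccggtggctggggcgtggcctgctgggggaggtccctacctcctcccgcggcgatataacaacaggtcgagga
Krt8: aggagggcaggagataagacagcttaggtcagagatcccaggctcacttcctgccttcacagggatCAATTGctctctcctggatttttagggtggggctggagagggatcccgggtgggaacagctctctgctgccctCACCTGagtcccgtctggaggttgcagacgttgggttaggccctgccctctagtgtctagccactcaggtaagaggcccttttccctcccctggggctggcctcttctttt

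Motifs were searched on both strands of these windows. The AP-1 letters TGANTCA, held by 6.75% of promoter windows, were in neither window shown. The GC box letters GGGCGG, held by 32.7%, were in neither as well. The same was true of the TATA box letters TATAAA, held by 12.4%. The Krt18 window held 1 and the Krt8 window 2, and an E box occurs in 66.2% of the 32851 promoter windows of the same length. The form CACCTG, read on either strand and looked for after the matches were seen, stood in both windows and occurs in 17.2% of all windows. It also stood in the windows of Krt7 and of Krt5, a gene with 0 counts in all 6 libraries. The Vim window held a TATA box and no E box. Of the 9 genes, 7 were found in the promoter table, and Krt17 and Krt19 were not. A match describes letters only and shows no binding.

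With all 6 libraries, no other tested gene around Krt8 and Krt18 was called higher. Of 59 counted genes that start within 500 kb of either, 21 were tested, and 19 of these were not members. Among the 19, edgeR called 0 higher and 1 lower, with 0 higher and 2 lower at an unadjusted p under 0.05, and DESeq2 called 0 higher and 2 lower. With KO 1 and WT 1 left out, edgeR called 3 of the 19 higher and 8 lower. Over all tested genes the shares called higher and lower were 3.55% and 3.86% in edgeR and 7.85% and 7.96% in DESeq2. Without KO 1 and WT 1 they were 23.3% and 24.6% in edgeR. No share over all genes is given for the unadjusted p, so nothing is read from that count. With all libraries their median log2 fold change was -0.08, against 0.01 over all tested genes. The nearest tested gene, Eif4b, a translation initiation factor 45.6 kb from the Krt18 start, averaged 837 ± 70.5 CPM in KO and 788 ± 4.70 CPM in WT (log2 fold change 0.09, SE 0.11, edgeR adjusted p = 0.708). The one neighbour that was called was lower. Igfbp6, an IGF-binding protein gene 116.2 kb from the Krt18 start, had 2.90, 2.98 and 1.06 CPM in KO libraries 1 to 3 and 23.5, 50.4 and 47.8 CPM in WT libraries 1 to 3. The fall was 17.6-fold (log2 fold change -4.12, SE 0.49, edgeR adjusted p = 0.00552). On the other side of Krt8 lies the type II cluster, and 16 of the 20 keratin genes in the window had 0 counts in all 6 libraries.

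**Figure D2:**
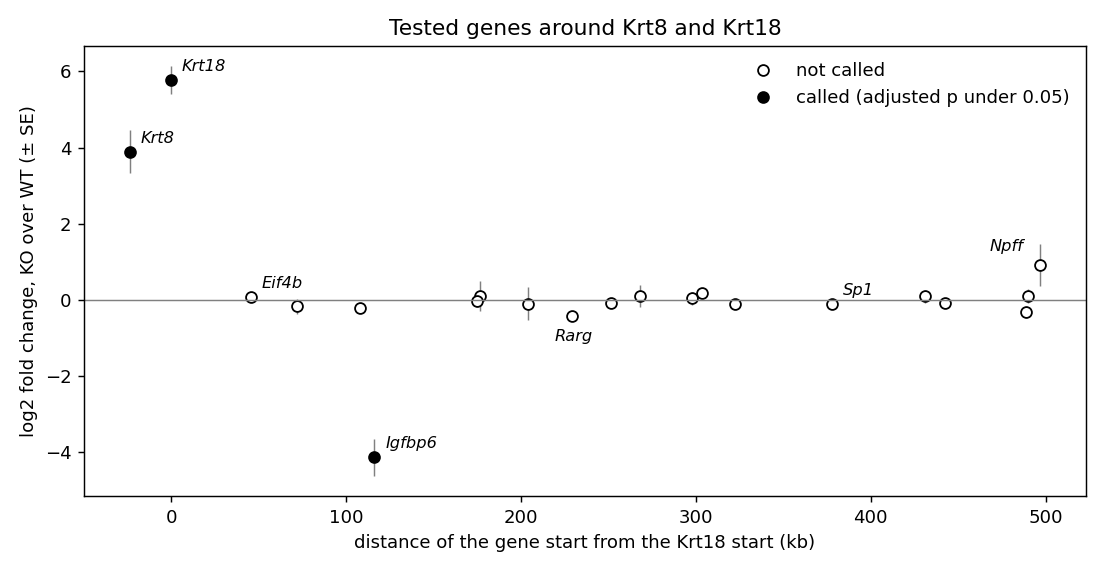
Log2 fold change (KO over WT, ± SE, edgeR) of the 21 tested genes within 500 kb of Krt8 or Krt18 against the distance of their start from the Krt18 start in kb. Krt8 and Krt18 stand at 3.90 and 5.77, Igfbp6 at -4.12, and every other gene lies between -0.41 and 0.92.

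Krt19 and Krt7 were higher in KO libraries 2 and 3 than in WT libraries 2 and 3, with KO 1 and WT 1 close together. Krt19, the type I keratin of ducts, had 1126, 2762 and 2245 counts in KO libraries 1 to 3 and 1064, 340 and 246 in WT libraries 1 to 3. In CPM these were 29.1, 64.8 and 65.9 in KO and 29.5, 7.86 and 5.65 in WT. The groups overlapped only through KO 1, which lay just under WT 1. The mean was 53.3 ± 20.9 CPM in KO and 14.3 ± 13.2 CPM in WT (log2 fold change 1.90, SE 0.67), and Krt19 did not pass the threshold. It passed without WT 1 (log2 fold change 2.98) and without KO 1 and WT 1 together (3.27), where the KO mean was 9.68 times the WT mean.

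Krt7, the type II keratin of ducts and glands, was barely detected. Its counts were 21, 43 and 53 in KO libraries 1 to 3 and 18, 14 and 18 in WT libraries 1 to 3, or 0.543, 1.01 and 1.56 CPM in KO and 0.499, 0.323 and 0.413 CPM in WT. KO 1 lay only just above WT 1, so the groups did not overlap (14.6% of tested genes had every KO library above every WT library). The log2 fold change was 1.32 (SE 0.54, 95% interval 0.05 to 2.60) and did not pass the threshold with all libraries, but Krt7 was called without KO 1 and WT 1 (1.79).

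Keratins of stratified and specialised epithelia were at or near 0. Krt5, Krt14 and Krt17 had 0 counts in all 6 libraries, which allows at most 0.0689 to 0.0881 CPM per library for each. Krt20, a keratin of intestinal lining, had 6 counts in KO 1 and 0 in the other 5 libraries, and was not tested. Krt14 and Krt17 share stretches of 91% identity with each other, so reads common to both could be dropped or misassigned, depending on the counting, which is not given in the sources used here.

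Vim was the dominant filament transcript in every library. It had 85000, 137167 and 114080 counts in KO libraries 1 to 3 and 135897, 133947 and 135149 in WT libraries 1 to 3. In CPM these were 2199, 3218 and 3350 in KO and 3770, 3094 and 3102 in WT. KO 1 was the lowest and WT 1 the highest library, while KO 2 and KO 3 lay between WT 1 and the other WT libraries. The mean was 2922 ± 630 CPM in KO and 3322 ± 388 CPM in WT. The log2 fold change was -0.18 (SE 0.19) with a 95% interval from -0.64 to 0.27, which bounds any decrease or increase but does not show equality. Without KO 1 and WT 1 its sign turned, at 0.08.

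**Figure D3:**
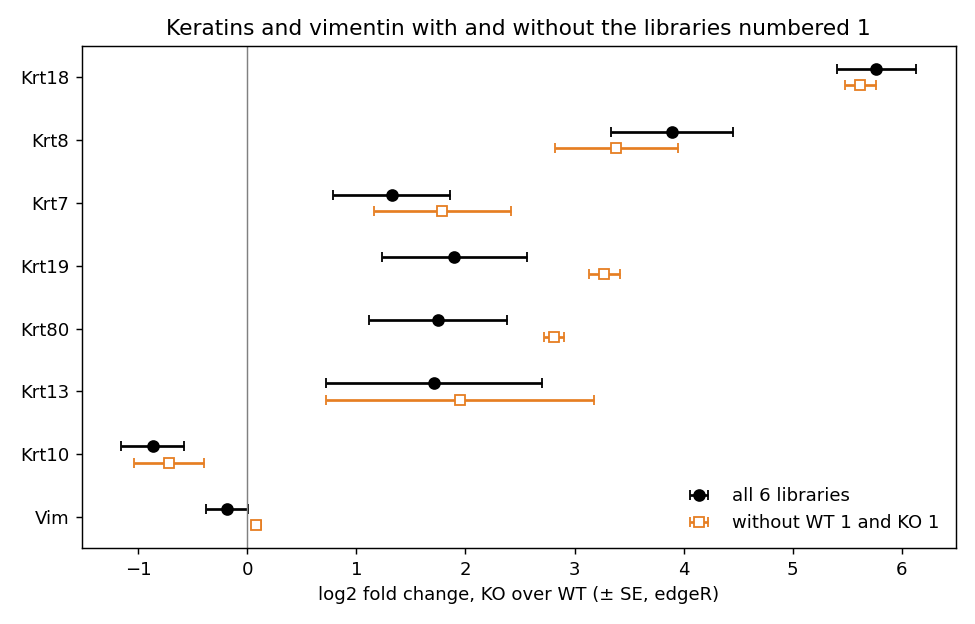
Log2 fold change (KO over WT, ± SE, edgeR) of Vim and the tested keratins, leaving out Krt16, which had 0 counts in WT, with all 6 libraries (black circles) and without KO 1 and WT 1 (orange squares). Krt18 stands at 5.77 and 5.62 and Krt8 at 3.90 and 3.38, while Krt19 moves from 1.90 to 3.27 and Krt80 from 1.75 to 2.81.

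Of the 46 other keratin symbols, 11 had a count in any library and 4 were tested. Krt80, a type II keratin known from differentiating epithelia, was the most abundant type II keratin per length in every library. It had 19.8, 80.9 and 81.0 CPM in KO libraries 1 to 3 and 31.2, 12.1 and 10.9 CPM in WT libraries 1 to 3. As with Krt19, KO 1 lay below WT 1 and the groups overlapped. Krt80 was not called with all libraries (log2 fold change 1.75, SE 0.63, edgeR adjusted p = 0.163), but was called without KO 1 (2.17, edgeR adjusted p = 0.0477) and without KO 1 and WT 1 together (2.81), and by DESeq2 (adjusted p = 0.0202). Over the 6 libraries the centred log2 CPM profiles of Krt80 and Krt19 differed by a root mean square of 0.467 (r = 0.944), a pair compared after their values were seen. An antisense gene, Gm35853, overlaps Krt80 but had at most 32 counts in a library.

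Krt16, a type I keratin of activated skin, was the only other keratin called. It had 33, 26 and 20 counts in KO libraries 1 to 3 and 0 counts in every WT library, at least 9.26-fold higher in KO, taking the floor of 3 counts in each WT library (edgeR adjusted p = 0.0181). Its call was lost without KO 1 (edgeR adjusted p = 0.0541), KO 2 (0.0918), KO 3 (0.0919), WT 2 (0.0577) or WT 3 (0.0615). Krt16 matches Krt14 at 87.4% identity, and Krt14 was listed at 0. Krt10, the type I keratin of the upper epidermis, was lower in KO at 2.17 ± 0.459 CPM, against 3.96 ± 0.668 CPM in WT, without passing the threshold (log2 fold change -0.87, SE 0.29, edgeR adjusted p = 0.134), although DESeq2 called it (adjusted p = 0.0371). Krt13 and Krt79 stayed below 0.6 CPM in every library. Krt79, with 42 counts over the KO libraries and 4 over the WT libraries, did not pass the filter with all libraries. It was called higher without KO 1 and WT 1 (log2 fold change 3.35, edgeR adjusted p = 0.0421).

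Levels of different genes are compared per length, as CPM per kb of merged exons. Summed over all keratins, type I transcripts reached 92.7, 78.8 and 77.6 CPM per kb in KO libraries 1 to 3 and 19.3, 6.47 and 6.21 in WT libraries 1 to 3. Type II transcripts reached 6.11, 14.4 and 13.9 CPM per kb in KO and 5.07, 2.07 and 1.92 in WT. Type I exceeded type II in every library, 15.2-fold, 5.48-fold and 5.60-fold in KO and 3.81-fold, 3.13-fold and 3.24-fold in WT. The type I sum did not overlap between the groups. The type II sum of KO 1 stood slightly above that of WT 1 on this scale, but with the longest transcript as the length it was 8.14 CPM per kb in KO 1 and 8.20 in WT 1, so the groups then overlapped.

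The make-up of the type I pool differed between the groups. Krt18 gave 81.1%, 53.7% and 51.5% of type I transcripts per length in KO libraries 1 to 3, against 6.4%, 11.2% and 15.2% in WT libraries 1 to 3. Krt19 gave 16.9%, 44.3% and 45.8% in KO and 82.4%, 65.5% and 49.0% in WT. Krt10 gave 0.977%, 1.14% and 1.65% in KO and 10.6%, 23.3% and 33.2% in WT, more than Krt18 in every WT library. Among type II transcripts, Krt80 gave 50.6%, 88.0% and 91.3% in KO and 96.1%, 91.3% and 89.2% in WT. Krt8 gave 47.8% in KO 1 and 10.3% and 6.27% in the other KO libraries, and 2.51% to 6.72% in WT. Krt8 was thus a small part of the type II pool except in KO 1.

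Krt18 transcripts outnumbered those of Krt8 per length in all 6 libraries. The ratio was 25.7, 28.5 and 46.0 in KO libraries 1 to 3 and 9.69, 7.66 and 7.31 in WT libraries 1 to 3, where it rests on 8 to 11 Krt8 counts per library. Vim exceeded the 8 keratin members together 4.93-fold, 8.60-fold and 9.22-fold in KO libraries 1 to 3 and 45.8-fold, 128-fold and 157-fold in WT libraries 1 to 3. With the longest transcript in place of merged exons, the mean ratio of Vim to the keratin members was 11.5 in KO and 156 in WT, in place of 7.58 and 110.

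**Figure D4:**
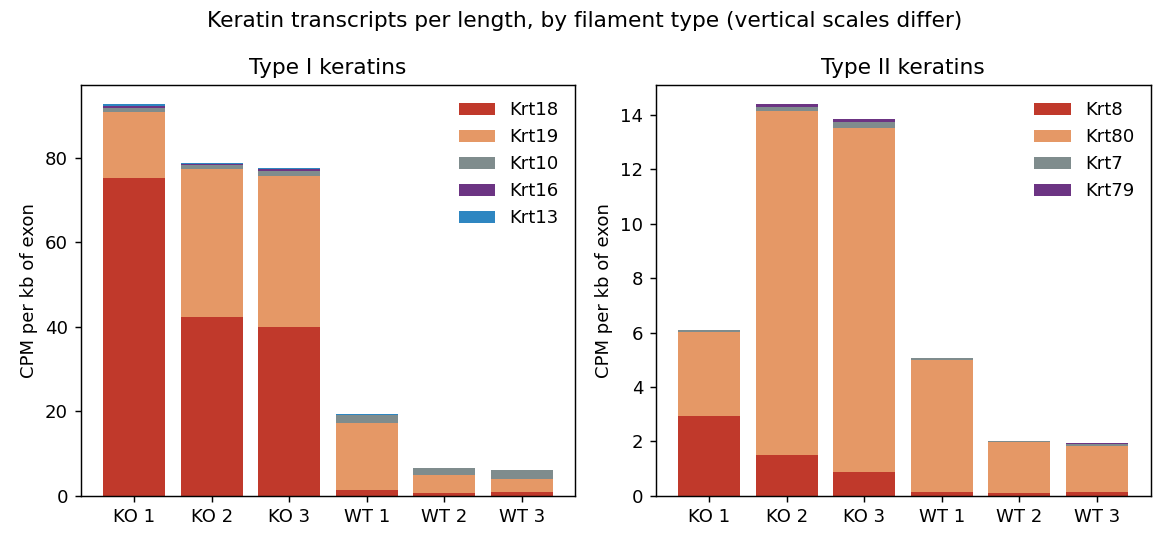
Keratin transcripts per length (CPM per kb of exon) in each library, KO libraries on the left, stacked by gene for type I (left panel) and type II keratins (right panel, on a scale of its own). Krt18 and Krt19 make up most of the type I bars and Krt80 most of the type II bars, with 50.6% from Krt80 and 47.8% from Krt8 in KO 1.

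The genes with profiles most like those of Krt18 and Krt8 were named by the root mean square difference of centred log2 CPM over the 6 libraries, among 11373 named genes averaging 1 CPM or more. Nearest to Krt18 were Pcdh17 (0.417), a protocadherin, B3gnt3 (0.504), a glycosyltransferase, Bex1 (0.611), Homer2 (0.669), a synaptic scaffold protein, and Dkk3 (0.756), a secreted protein of the dickkopf family. Of these, B3gnt3 averaged 12.7 ± 4.62 CPM in KO and 0.206 ± 0.0851 CPM in WT, and Dkk3 65.9 ± 19.7 CPM in KO and 2.59 ± 0.995 CPM in WT. Pcdh17 and Homer2 had 0 counts in every WT library, so their distance depends on the prior count of 2. The same holds for Bex1, with 6, 0 and 0 counts in WT libraries 1 to 3, whose log2 fold change was 5.75 with all libraries and 9.89 without WT 1. Nearest to Krt8 were Hap1 (0.286), the huntingtin-associated protein, Sytl4 (0.341), a vesicle-docking protein, Fads6 (0.343), Smoc1 (0.357), a matricellular protein, and Cul9 (0.374), a cullin. Hap1 averaged 23.8 ± 10.8 CPM in KO and 2.55 ± 0.338 CPM in WT, and it lies within 500 kb of Krt14 or Krt19 on chromosome 11. Krt8 and Krt18 themselves differed by 1.14, although their profiles ran in parallel (r = 0.982).

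Of 18 tested genes around Krt14 and Krt19 on chromosome 11, 17 were not members. Among the 17, edgeR called 2 higher and 2 lower, and DESeq2 called 2 higher and 2 lower. Without KO 1 and WT 1, edgeR called 5 higher and 4 lower. The shares of all tested genes called higher and lower were 3.55% and 3.86% in edgeR and 7.85% and 7.96% in DESeq2. In edgeR without that pair they were 23.3% and 24.6%. Krt16 and Hap1 rose, Hap1 9.31-fold (edgeR adjusted p = 0.0041). Jup, the gene of plakoglobin, and Fkbp10, a collagen chaperone, fell 1.86-fold and 1.45-fold (edgeR adjusted p = 0.0304 and 0.022). The Fkbp10 call was lost without KO 2, KO 3, WT 2 or WT 3 (edgeR adjusted p 0.0915 to 0.11).

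Other genes of filament biology and of epithelia were read from 12 lists holding 164 genes, of which 107 were tested, 8 rose and 7 fell in KO cells. Over all lists 14% of tested genes were called, beside 7.4% of all genes tested, and the median log2 fold change was 0.08 against 0.01. The lists were chosen with earlier results of these data known, so nothing is read from this difference in shares. In DESeq2 29 of the 107 list genes were called, beside 15.8% of all tested genes. Without KO 1 and WT 1, edgeR called 38 list genes higher and 31 lower of 111 tested, beside 48% of all genes, and the 15 called with all libraries were among them.

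Among other intermediate filament genes, 1 of 9 tested fell and 0 rose. Synm, encoding synemin, a filament protein that joins vimentin, had 2.33, 3.99 and 4.76 CPM in KO libraries 1 to 3 and 8.43, 9.70 and 9.57 CPM in WT libraries 1 to 3. The fall was 2.50-fold (edgeR adjusted p = 0.0446), and the call was lost without KO 2, KO 3, WT 1, WT 2 or WT 3 (edgeR adjusted p 0.0611 to 0.163). The lamin gene Lmna was not called with all libraries, at 780 ± 165 CPM in KO and 1092 ± 126 CPM in WT (edgeR adjusted p = 0.191). Nes, encoding nestin, had 174, 425 and 437 CPM in KO libraries 1 to 3 and 215, 92.2 and 98.9 CPM in WT libraries 1 to 3, again with KO 1 below WT 1 (edgeR adjusted p = 0.141). Of the 9 genes, 2 were called higher and 2 lower without KO 1 and WT 1, among them Nes (log2 fold change 2.17, against 1.35 with all libraries) and Lmna (-0.23). Among all tested genes, edgeR called 3.55% higher and 3.86% lower with all libraries, and 23.3% and 24.6% without that pair.

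Desmosomes anchor keratin filaments at cell contacts. Of 8 tested desmosome genes 1 rose and 1 fell, and 6 further genes of the list, desmogleins and desmocollins, had 0 counts in all libraries. Pkp3, a plakophilin, had 5.43, 6.17 and 6.17 CPM in KO libraries 1 to 3 and 1.33, 1.78 and 1.63 CPM in WT libraries 1 to 3, a 3.75-fold rise (log2 fold change 1.90, SE 0.25, edgeR adjusted p = 0.00713). Jup, shared by desmosomes and adherens junctions, averaged 125 ± 12.2 CPM in KO and 232 ± 47.6 CPM in WT. The Jup call was lost without KO 2, KO 3, WT 2 or WT 3 (edgeR adjusted p 0.121 to 0.138), and with library sizes alone in place of TMM scaling (edgeR adjusted p = 0.0641). Dsp, encoding desmoplakin, the link between keratin and desmosome, averaged 3.37 ± 0.982 CPM in KO and 0.443 ± 0.4 CPM in WT and was not called (edgeR adjusted p = 0.159). Of the 8 desmosome genes, 5 were called higher and 1 lower without KO 1 and WT 1. None of 10 hemidesmosome and cytolinker genes (Plec, Dst and others) and none of 17 genes whose products bind or modify keratins (14-3-3 proteins and others) was called by edgeR with all libraries, where the median log2 fold changes were 0.25 and -0.19. Of the hemidesmosome and cytolinker genes, 0 were higher and 1 was lower at an unadjusted p under 0.05, and DESeq2 called 0, while edgeR without KO 1 and WT 1 called 4 higher and 1 lower. Of the keratin-binding genes, 1 was higher and 3 were lower at an unadjusted p under 0.05, and DESeq2 called 1 higher and 2 lower. For these genes edgeR without KO 1 and WT 1 called 6 higher and 6 lower. Over all tested genes DESeq2 called 7.85% higher and 7.96% lower. The shares in edgeR were 3.55% and 3.86% with all libraries and 23.3% and 24.6% without that pair. No share over all genes is given for the unadjusted p, so nothing is read from those counts.

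Most non-keratin epithelial genes were low. Of 12 tested, edgeR called 2 higher and 0 lower (median log2 fold change 1.13), beside 3.55% and 3.86% of all tested genes. DESeq2 called 4 higher and 0 lower, beside 7.85% and 7.96%. The 2 called by edgeR encode inhibitors of membrane-bound serine proteases. Spint2 had 17.3, 6.54 and 6.78 CPM in KO libraries 1 to 3 and 0.694, 0.855 and 1.54 CPM in WT libraries 1 to 3, a 9.93-fold rise (edgeR adjusted p = 0.016). Its log2 fold change was 3.30 with all libraries, 2.69 without KO 1 and 2.47 without KO 1 and WT 1, while leaving out WT 2 ended the call (edgeR adjusted p = 0.0806). Spint1 rose 3.66-fold (edgeR adjusted p = 0.0204), a call lost without KO 2, KO 3, WT 2 or WT 3 (edgeR adjusted p 0.0597 to 0.0714). Of the epithelial adhesion genes, Cdh1, E-cadherin, was near the floor, at 0.103 ± 0.179 CPM in KO and 0.267 ± 0.163 CPM in WT. Epcam was low, at 0.675 ± 0.356 CPM in KO and 0.641 ± 0.498 CPM in WT. Cdh3, P-cadherin, was well above the floor, at 30.2 ± 15.7 CPM in KO and 30.7 ± 7.0 CPM in WT. Cdh3 was not called with all libraries (edgeR adjusted p = 0.981) but was called higher without KO 1 and WT 1 (log2 fold change 0.54). Among the 12 tested, 4 were called higher and 1 lower without KO 1 and WT 1, beside 23.3% and 24.6% of all genes. The lower one was Cdh1, with 0 counts in KO 2 and KO 3. Cldn6, Ocln, Esrp1 and Ap1m2 had 0 counts in every library. The 24 genes of the list summed to 69.8 to 74.5 CPM in KO and 36.2 to 46.6 CPM in WT, and the part of any epithelial cells in the keratin levels was not tested. In bulk RNA, more cells of a type and more RNA per cell cannot be told apart.

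Of 8 tested epithelial transcription factors, edgeR called 2 higher and 0 lower, and DESeq2 called 3 higher and 1 lower. Tfap2a, encoding AP-2 alpha, had 9.21, 9.5 and 11.3 CPM in KO libraries 1 to 3 and 0.999, 1.48 and 1.61 CPM in WT libraries 1 to 3, a 7.36-fold rise (log2 fold change 2.87, SE 0.27, edgeR adjusted p = 0.00221). Foxa1, a factor of endoderm-derived epithelia named after its values were seen, had 52, 23 and 45 counts in KO libraries 1 to 3 and 0 counts in every WT library, at least 14.5-fold higher on the same floor (edgeR adjusted p = 0.0191). The Foxa1 call was lost without KO 1, KO 2, KO 3, WT 2 or WT 3 (edgeR adjusted p 0.0508 to 0.0983). Elf5, Ehf, Ovol2, Tfap2c, Hnf4a and Cdx2 had 0 counts throughout. Gata3 had a lower mean in KO, at 5.36 ± 1.74 CPM against 10.7 ± 1.58 CPM in WT, and edgeR did not call it (adjusted p = 0.0888). Leaving out KO 1 and WT 1, 5 of 9 tested factors were called higher and 2 lower. The lower ones were Gata3 (log2 fold change -1.38) and Klf4 (-0.37). Of 10 factors of epithelial-mesenchymal transition 1 fell. Snai2, which binds E boxes and represses epithelial genes, had 18.3, 11.5 and 13.5 CPM in KO libraries 1 to 3 and 36.9, 44.3 and 46.3 CPM in WT libraries 1 to 3, a 2.94-fold fall (log2 fold change -1.56, SE 0.20, edgeR adjusted p = 0.00742). Without KO 3 it was not called (edgeR adjusted p = 0.0534). Snai1, Zeb1, Zeb2, Twist1 and Twist2 were not called with all libraries. Of the 10 factors, 2 were called higher and 5 lower without KO 1 and WT 1, among them Snai1 (log2 fold change 0.32), Zeb2 (-0.46) and Twist1 (-0.39). Of 13 AP-1, ETS and SP factors, which can act on keratin genes, Fosl2 rose 1.54-fold (edgeR adjusted p = 0.0169), a call lost without KO 2, KO 3, WT 2 or WT 3 (edgeR adjusted p 0.0709 to 0.0985). Of the 13, 4 were called higher and 4 lower without KO 1 and WT 1. For comparison with these 3 lists, edgeR called 3.55% of all tested genes higher and 3.86% lower with all libraries. Without KO 1 and WT 1 it called 23.3% higher and 24.6% lower. DESeq2 called 7.85% higher and 7.96% lower.

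**Figure D5:**
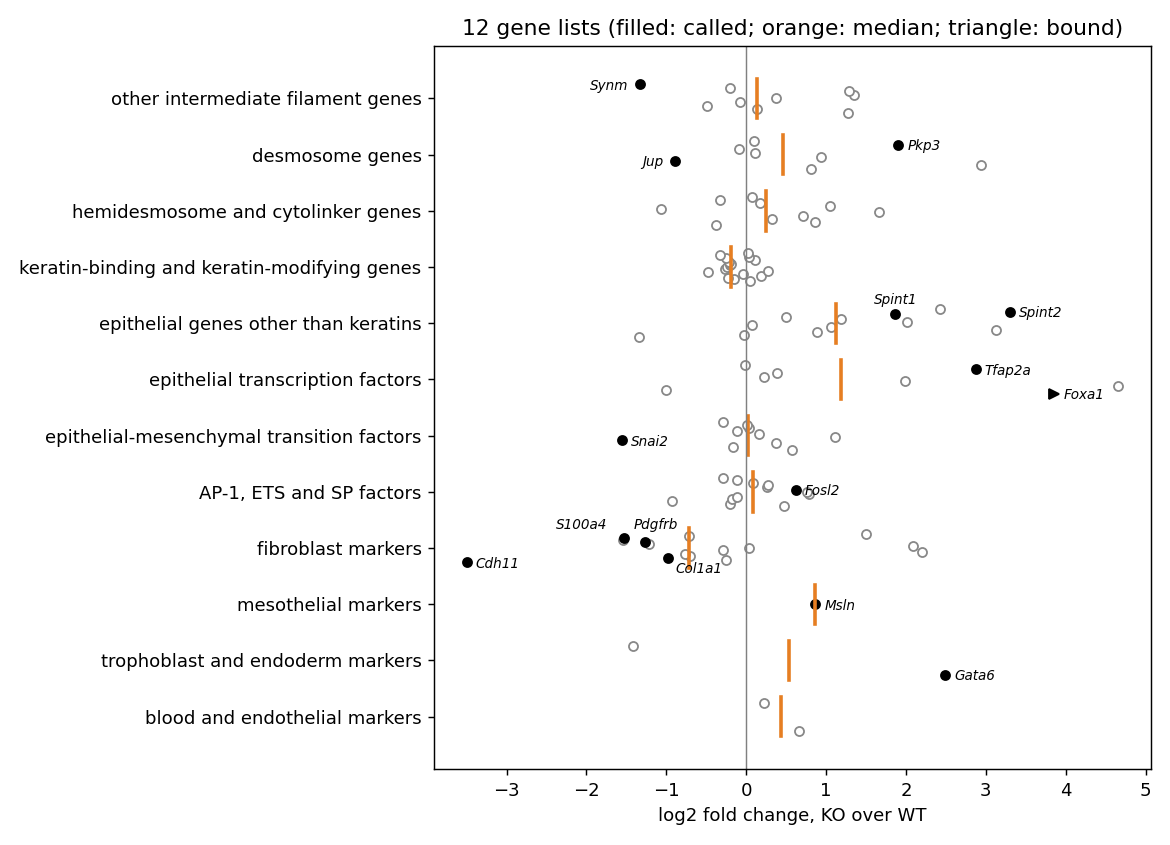
Log2 fold change (KO over WT, edgeR) of each tested gene in the 12 lists, with called genes filled and named and the median of each list in orange. The triangle marks Foxa1, with 0 counts in WT, at the lower bound of its fold. Tfap2a, Pkp3, Spint1, Spint2, Fosl2, Msln and Gata6 stand to the right of 0, and Snai2, Jup, Synm and 4 fibroblast markers to the left.

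Fibroblast markers were abundant in every library. The 16 genes summed to 11104 to 14781 CPM in KO and 14620 to 21568 CPM in WT. Of 15 tested, edgeR called 4 lower and 0 higher (median log2 fold change -0.71), and DESeq2 called 6 lower and 1 higher. Among all tested genes, edgeR called 3.86% lower and 3.55% higher, and DESeq2 7.96% lower and 7.85% higher. Cdh11, a cadherin of mesenchymal cells, fell 11.3-fold, at 6.53 ± 3.04 CPM in KO and 73.8 ± 26.8 CPM in WT (edgeR adjusted p = 0.00631). S100a4, Pdgfrb and Col1a1 fell 2.88-fold, 2.41-fold and 1.97-fold (edgeR adjusted p 0.0209 to 0.0425), each call being lost without KO 2, KO 3, WT 2 or WT 3 (edgeR adjusted p 0.0916 to 0.172). The S100a4 call was also lost with library sizes alone (edgeR adjusted p = 0.0742) and with a 5 CPM mean filter (0.057). Thy1 and Dcn had higher means in KO without a call by edgeR. Thy1 averaged 6.52 ± 2.52 CPM in KO and 2.31 ± 1.22 CPM in WT, and Dcn 30.3 ± 28.6 and 6.56 ± 4.83 CPM. Fn1 was close in both groups, at 4285 ± 387 CPM in KO and 4179 ± 423 CPM in WT. With KO 1 and WT 1 left out, 3 of the 15 were called higher (Thy1, Dcn and Cdh2) and 9 lower, beside 23.3% and 24.6% of all genes. Cdh11 was then at a log2 fold change of -4.22, against -3.50 with all libraries, and S100a4 at -2.12, against -1.53.

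Among 8 mesothelial markers, which belong to a keratin-positive lining of mesodermal origin, only Msln was tested. It rose 1.82-fold, at 299 ± 5.78 CPM in KO and 164 ± 2.81 CPM in WT (edgeR adjusted p = 0.0036). Upk3b, Upk1b, Wt1, Lrrn4 and Muc16 had 0 counts in all 6 libraries. Among 10 trophoblast and endoderm markers, whose cells carry KRT8 and KRT18, 2 were tested and Gata6 rose 5.63-fold, at 12.1 ± 0.977 CPM in KO and 2.15 ± 0.204 CPM in WT (edgeR adjusted p = 0.00148), while Hand1, Ascl2, Prl3d1, Sox17 and Afp had 0 counts. The 6 blood and endothelial markers summed to 2.2 to 6.05 CPM in KO and 2.08 to 3.26 CPM in WT, and neither of the 2 tested was called by edgeR or DESeq2 (0 at an unadjusted p under 0.05). Without KO 1 and WT 1, edgeR called 1 of 3 tested mesothelial, 2 of 3 tested trophoblast and endoderm and 0 of 2 tested blood and endothelial markers, those called being higher. Among all tested genes, edgeR called 3.55% higher with all libraries and 23.3% without that pair.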

How the data were processed

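RNA from 6 MEF libraries (3 KO, 3 WT) was prepared with a directional kit, per the labels' protocols. The authors deposited, for each library, unnormalized read counts by gene symbol. Per the submitters' processing notes, the tools included Trim Galore 0.6.6 and HISAT2 2.2.1, and these notes also list a human build although the symbols are mouse symbols. What program, strand setting or gene annotation made the counts is not given in the sources used here. Groups follow the sample titles, since the genotype labels of KO 2 and KO 3 name other numbers after PME.

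The test was the robust quasi-likelihood fit of edgeR 4.0.16 (R 4.3.3), after filterByExpr and TMM scaling, and p-values were adjusted by Benjamini-Hochberg across all 15223 genes kept (threshold 0.05). "Called" means past that threshold. SE is the log2 fold change divided by the square root of F. CPM use TMM factors, and folds are ratios of mean CPM. Members and lists were chosen with earlier results of these data known. Named genes are the members, called list genes (up to 4 per list, mean of at least 1 CPM), the 6 most counted other keratins with 10 counts in a library, the 5 nearest profiles, called neighbours and label checks. Positions and exon lengths come from GENCODE M21, which holds 92.9% of the symbols, and similar transcripts from blastn (at least 80% identity over 400 bases). Alternatives were DESeq2 1.42.0, limma-voom (limma 3.58.1), other scaling and filters, a replicate block and left-out libraries. The fits were checked on simulated counts.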

Additional observations from a re-analysis of the deposited data

How the results depend on the processing

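Krt18 was called under every alternative run. The count of all called genes was 1127 in edgeR, 2406 in DESeq2, 7408 without KO 1 and WT 1, and 332 to 1216 with single libraries left out. Members called were 2, and 1 with a 5 CPM mean filter (which removes Krt8), 4 without KO 1 and WT 1, and 1 to 3 with single libraries left out. Other keratins called were 1, with 3 in DESeq2, 0 with a 5 CPM mean filter, 3 without KO 1 and WT 1, and 0 to 1 with single libraries left out. List genes called were 15, with 29 in DESeq2, 69 without KO 1 and WT 1, and 6 to 19 with single libraries left out. With single libraries left out, the log2 fold change of Krt8 ranged from 3.32 to 4.23, and it was not called without WT 2 or WT 3. The log2 fold change of Vim lay between -0.29 and -0.018 with single libraries left out and turned to 0.083 without KO 1 and WT 1.

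Same-numbered libraries did not deviate together (correlations of deviations -0.512, -0.307 and -0.223). KO 1 and WT 1, which stood apart from their groups, weigh heavily in these values. The correlations therefore cannot show whether same-numbered libraries were grown or processed together, and the labels do not say so. With the replicate number as a block, 8 genes in all were called, 1 member (Krt18, log2 fold change 5.73), 0 other keratins and 0 list genes, and Krt8 was at 3.73 without a call. Over the other 38 genes named, 431 of 522 values kept their side of the threshold, 83 lost it, 8 gained it and 0 changed sign. Counts of 53 or fewer per library limit Krt8 in WT, Krt7 and Krt16, and counting intervals cover counting error only.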
